A study of Mus musculus with 6 samples.

Results

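Transcripts of 10 genes of growth hormone receptor and STAT5 signalling were followed in mouse livers with and without an activated β-catenin allele. The genes were taken by symbol from a table of 31950 genes, and each symbol had 1 line: the receptors *Ghr* and *Prlr*, the kinase *Jak2*, the transcription factors *Stat5a* and *Stat5b*, the feedback inhibitors *Socs2*, *Socs3* and *Cish*, and the transcriptional repressors *Bcl6* and *Cux2*. Livers of 3 WT and 3 β-cateninΔ(ex3)/+ mice were sequenced, 1 library per liver. All 6 are labelled as C57BL/6 and 8 weeks old, and β-cateninΔ(ex3)/+ mice carry 1 allele of the β-catenin gene *Ctnnb1* that lacks exon 3, a change that stabilizes the protein. The methods describe liver deletion of exon 3 with a tamoxifen-inducible Cre under the albumin promoter and with Cre adenovirus, the latter giving mosaic deletion. They do not state which of these gave the livers sequenced, nor the sex of the mice. In the study, livers of the tamoxifen model are named β-cateninΔ(ex3)/+, as the sequenced livers are.

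Growth hormone is released by the pituitary and binds its receptor on hepatocytes, where the receptor-bound kinase JAK2 phosphorylates STAT5A and STAT5B. The phosphorylated STAT5 proteins enter the nucleus and switch on genes such as *Igf1*, *Socs2* and *Cish*, the last 2 of which encode inhibitors of the same pathway. In mice the hormone comes in pulses in males and almost continuously in females, and many liver genes differ between the sexes for this reason. BCL6, known as higher in male liver, and CUX2, known as specific to female liver in adult mice, are repressors that act on these sex-dependent genes.

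Values are FPKM, the fragments of a gene scaled to transcript length and to the mapped fragments of the library. Genes with an adjusted p under 0.05 and a fold change of at least 2 on the log2(FPKM + 1) scale were taken as differentially expressed, and only such genes are said to have risen or fallen. On this scale the change of a gene with low FPKM is understated, so the ratio of the mean FPKM is given beside it. Groups were told apart by more than genotype. *Xist*, the RNA of the silenced X chromosome, had at least 20.3 FPKM in each WT liver and at most 0.0146 FPKM in each β-cateninΔ(ex3)/+ liver, and the Y-linked *Eif2s3y* had at most 0.0169 and at least 9.20 FPKM. Of 12 tested genes known to be high in the fetal and newborn liver, 11 fell and 1, *Scd2*, rose in β-cateninΔ(ex3)/+ livers, with a summed level of 3960 to 4028 FPKM in WT and 11.05 to 14.1 FPKM in β-cateninΔ(ex3)/+ livers. *H19* and *Afp*, for example, had 2353 and 608 FPKM on average in WT livers, although both groups carry the same age label. The *Scd2* call was lost without WT replicate 2, WT replicate 3 or β-cateninΔ(ex3)/+ replicate 1, with adjusted p of 0.0532, 0.0504 and 0.0562 by limma. Genotype, sex and the level of these genes cannot be told apart in any comparison below. *Ctnnb1* itself had 25.9 to 27.95 FPKM in WT and 25.04 to 25.4 FPKM in β-cateninΔ(ex3)/+ livers, and values per gene do not show whether exon 3 was lost. Of 7 genes known as targets of β-catenin in liver, 5 rose and 0 fell, against 8.17% and 4.52% of all genes tested. The other 2 had an adjusted p under 0.05 with less than 2-fold, 1 higher and 1 lower in β-cateninΔ(ex3)/+ livers.

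Of the 10 genes, 4 were differentially expressed, against 12.7% of all 13243 genes tested. *Bcl6* and *Socs3* rose, and *Socs2* and *Cux2* fell in β-cateninΔ(ex3)/+ livers; 8.17% of all genes rose and 4.52% fell. A further 5 genes had an adjusted p under 0.05 with a fold change under 2, so that 9 of the 10 had an adjusted p under 0.05, against 57.0% of all genes. Of these, 6 were higher and 3 lower in β-cateninΔ(ex3)/+ livers, against 37.4% and 19.6% of all genes; the 6 include *Stat5b*, whose adjusted p by limma was 0.0582 with median-ratio scaling and 0.945 with quantile normalization. For the same 9 genes the WT and β-cateninΔ(ex3)/+ livers did not overlap, against 66.0% of all genes (43.0% higher and 23.0% lower), with a two-sided exact permutation p of 0.1 each, the smallest that 3 livers against 3 allow. The median absolute log2 fold change was 0.97 over the 10 genes and 0.35 over all genes tested. Replicates were close: the coefficient of variation of the 10 genes ran from 0.523% to 14.5% in WT and from 1.45% to 19.9% in β-cateninΔ(ex3)/+ livers.

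**Figure D1:**
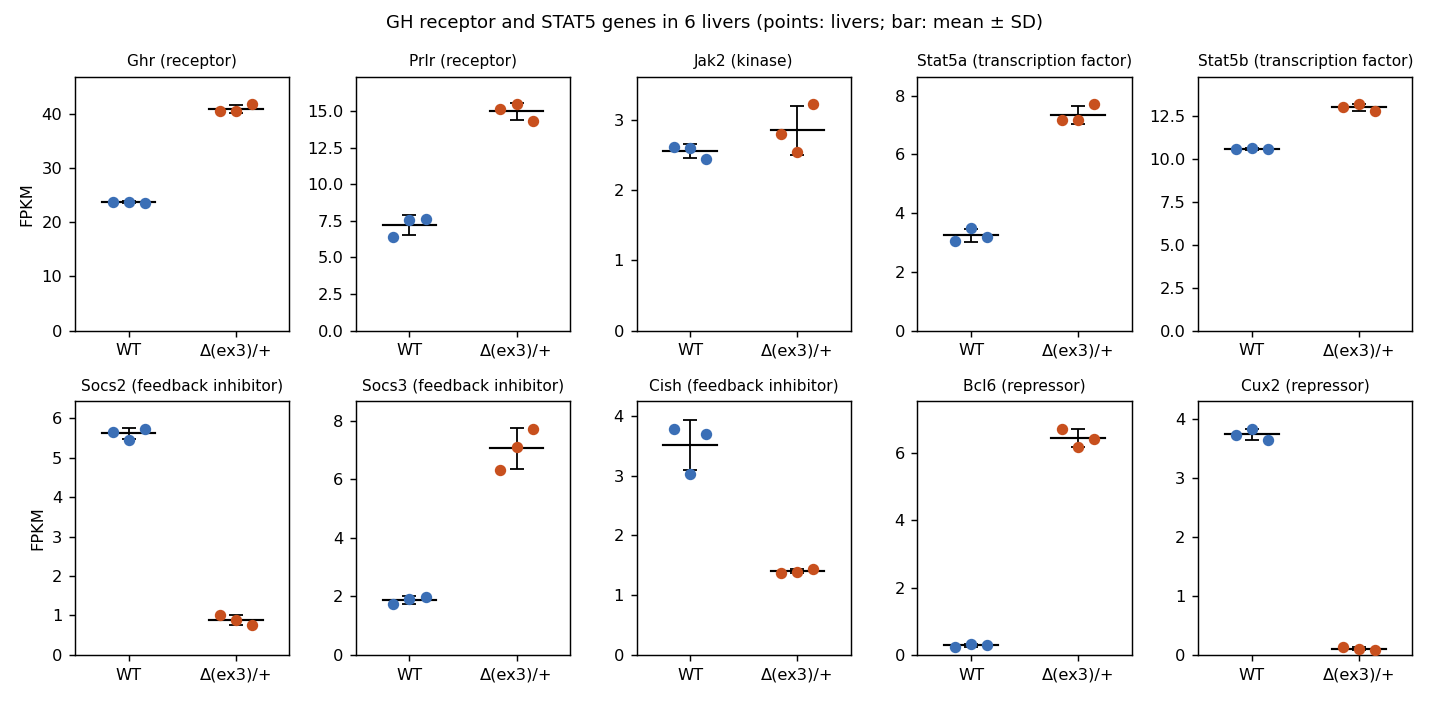
FPKM of the 10 genes in each liver, one panel per gene with its own axis from 0; points are livers, the horizontal bar is the mean and the error bar the SD of 3 livers. Livers of the groups overlap only for *Jak2*; *Bcl6* lies near 0 in WT and *Cux2* near 0 in β-cateninΔ(ex3)/+ livers.

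STAT5 dimers bind the palindrome TTCNNNGAA, in which N is any base, and BCL6 is known to recognise a closely related sequence. To show where these letters lie, the stretches from 200 bases before to 30 bases after a transcription start were taken from RefSeq (build GRCm38.p6) for 3 genes of the loop, the STAT5 target *Cish*, the other inhibitor with an entry, *Socs3*, and the more downstream of 2 start sites of *Bcl6*, the gene that rose most among the 10. Capitals mark each copy of TTCNNNGAA.
Cish, chr9:107296459-107296688, plus strand: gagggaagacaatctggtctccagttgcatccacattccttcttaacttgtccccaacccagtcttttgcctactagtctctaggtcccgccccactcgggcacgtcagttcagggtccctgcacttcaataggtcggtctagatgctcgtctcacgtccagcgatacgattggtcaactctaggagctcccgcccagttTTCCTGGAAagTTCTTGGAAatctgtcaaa
Socs3, chr11:117969337-117969566, minus strand: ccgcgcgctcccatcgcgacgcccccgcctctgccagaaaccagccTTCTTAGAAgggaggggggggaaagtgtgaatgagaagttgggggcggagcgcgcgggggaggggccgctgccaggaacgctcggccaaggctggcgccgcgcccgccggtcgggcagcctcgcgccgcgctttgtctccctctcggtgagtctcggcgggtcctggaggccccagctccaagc
Bcl6, chr16:23981254-23981483, minus strand: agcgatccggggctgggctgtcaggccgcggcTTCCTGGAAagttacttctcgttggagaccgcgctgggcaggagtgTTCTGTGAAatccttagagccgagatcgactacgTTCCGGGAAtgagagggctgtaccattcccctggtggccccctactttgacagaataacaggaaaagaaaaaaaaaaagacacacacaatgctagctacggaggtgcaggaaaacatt
The *Cish* stretch holds 2 copies, the first at the start site and the next 11 bases after it. A single copy lies 154 bases before the *Socs3* start, and the *Bcl6* stretch holds 3, at 168, 122 and 88 bases before the start. The palindrome reads the same on either strand, so both strands were searched at once. Windows of 300 bases, from 250 before to 50 after a start, were held for 9 of the 10 genes, in 16 windows, and 5 windows of 4 genes had a copy; the others were the upstream *Bcl6* start, with 1 copy 118 bases before it, and 1 of 3 *Prlr* starts, with 1 copy 110 bases before it. Among 32851 such windows of all genes, 8.30% held at least 1 copy, 0.457% at least 2, and 0.0335%, which is 11 windows, at least 3. No entry was found for *Socs2*. The 3 stretches were taken for display from windows that hold a copy, so the shares over all windows are no test of them. These matches describe letters in the reference, and binding was not measured here.

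*Ghr* (ENSMUSG00000055737, chromosome 15 from 3317760 to 3583230, minus strand) encodes the growth hormone receptor, and its transcript was the most abundant of the 10 in both groups. WT livers had 23.8, 23.7 and 23.5 FPKM, and β-cateninΔ(ex3)/+ livers had 40.5, 40.4 and 41.7 FPKM. Every β-cateninΔ(ex3)/+ liver thus lay above every WT liver, and within a group the livers were nearly alike. The means were 23.7 ± 0.160 and 40.9 ± 0.752 FPKM (SD, n = 3), a ratio of 1.73, and the change on the log2 scale was 0.76 (standard error, SE, 0.034, adjusted p = 1.08e-05 by limma), under the fold threshold. That change was 0.59 with median-ratio scaling and 0.49 with quantile normalization.

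*Prlr* (ENSMUSG00000005268, chromosome 15 from 10177238 to 10349180, plus strand) encodes the prolactin receptor, a relative of the growth hormone receptor that also signals through JAK2 and STAT5. Its levels were 6.41, 7.59 and 7.59 FPKM in WT and 15.1, 15.5 and 14.4 FPKM in β-cateninΔ(ex3)/+ livers. The groups did not overlap, and WT replicate 1 was the lowest liver. Means of 7.20 ± 0.686 and 15.0 ± 0.575 FPKM (SD, n = 3) gave a ratio of 2.08, while the log2 fold change on the scale with the pseudocount was 0.97 (SE 0.074, adjusted p = 0.000105 by limma), just under the fold threshold. It passed that threshold without WT replicate 2 (1.002, adjusted p = 0.000504 by limma) and without WT replicate 3 (1.002, adjusted p = 0.000616 by limma), and was 1.05 with a pseudocount of 0.1. In the other direction it was 0.89 without WT replicate 1, 0.81 with median-ratio scaling and 0.70 with quantile normalization.

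Within each liver the *Ghr* transcript exceeded that of *Prlr*. The ratio of their FPKM was 3.71, 3.13 and 3.09 in WT and 2.67, 2.61 and 2.91 in β-cateninΔ(ex3)/+ livers, so that each β-cateninΔ(ex3)/+ liver had a lower ratio than each WT liver. On the log2 scale the mean ratio differed by -0.27 (p = 0.1 in the two-sided exact permutation test), and without WT replicate 1 by -0.19.

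*Jak2* (ENSMUSG00000024789, chromosome 19 from 29251828 to 29313080, plus strand), the kinase bound to both receptors, had 2.61, 2.60 and 2.43 FPKM in WT and 2.79, 2.53 and 3.22 FPKM in β-cateninΔ(ex3)/+ livers. The groups overlapped, β-cateninΔ(ex3)/+ replicate 2 lying below the 2 highest WT livers. With means of 2.55 ± 0.1002 and 2.85 ± 0.346 FPKM (SD, n = 3), the change on the log2 scale was 0.11 (SE 0.079, adjusted p = 0.266 by limma) and its 95% interval ran from -0.08 to 0.31. A difference of up to 0.31 on the log2 scale is therefore within what these livers allow, and the sign turned under other scalings, at -0.014 with median-ratio scaling and -0.042 with quantile normalization.

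*Stat5a* (ENSMUSG00000004043, chromosome 11 from 100859351 to 100885169, plus strand) and *Stat5b* (ENSMUSG00000020919, chromosome 11 from 100780731 to 100850724, minus strand) are neighbours that encode closely related transcription factors, of which STAT5B is known as the main form in liver. *Stat5a* had 3.05, 3.49 and 3.18 FPKM in WT and 7.19, 7.16 and 7.70 FPKM in β-cateninΔ(ex3)/+ livers. Each β-cateninΔ(ex3)/+ liver was above each WT liver, with a ratio of the means of 2.27. The log2 change of 0.98 (SE 0.061, adjusted p = 4.42e-05 by limma) was just under the fold threshold and was 1.02 (limma adjusted p = 0.000158) without WT replicate 2, past it. With a pseudocount of 0.1 the log2 change of *Stat5a* was 1.16. It was 0.95 without WT replicate 1, 0.83 with median-ratio scaling and 0.77 with quantile normalization.

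*Stat5b* was the more abundant of the pair in both groups, with 10.6, 10.7 and 10.6 FPKM in WT and 13.0, 13.2 and 12.8 FPKM in β-cateninΔ(ex3)/+ livers. The groups did not overlap, but the difference was small, with a ratio of the means of 1.23 and a log2 change of 0.27 (SE 0.038, adjusted p = 0.00153 by limma). It was 0.11 with median-ratio scaling and -0.0040 with quantile normalization, which moved the median of all genes by -0.12 and -0.16, so no direction is given for *Stat5b*. The ratio of *Stat5b* to *Stat5a* within a liver is free of any factor common to all genes of that liver. It was 3.47, 3.06 and 3.32 in WT and 1.81, 1.84 and 1.66 in β-cateninΔ(ex3)/+ livers, without overlap, a difference of -0.89 in the mean log2 ratio (p = 0.1 in the two-sided exact permutation test). In the annotated transcripts 4.12% of the 150-base windows and 14.7% of the 50-base windows of *Stat5a* also occur in *Stat5b*, which limits how far fragments can be told apart.

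**Figure D2:**
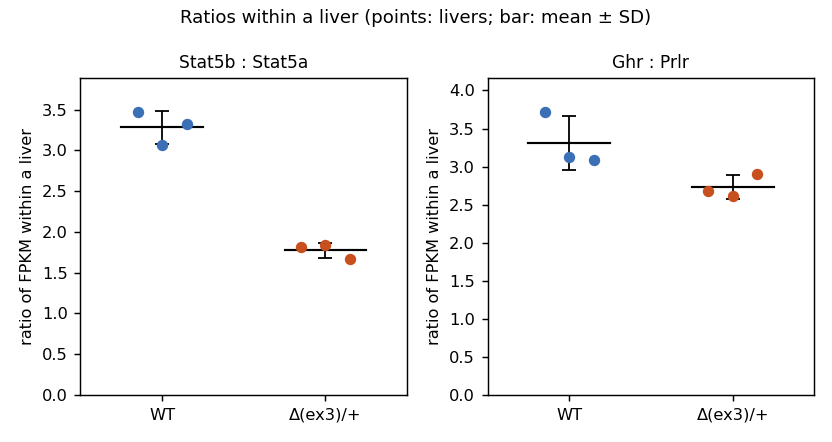
Ratio of the FPKM of *Stat5b* to *Stat5a* (left) and of *Ghr* to *Prlr* (right) within each liver; points are livers, bars the mean ± SD of 3 livers, axes from 0. The *Stat5b* to *Stat5a* ratio was at least 3.06 in WT and at most 1.84 in β-cateninΔ(ex3)/+ livers.

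The feedback inhibitors did not move as a group. *Socs2* (ENSMUSG00000020027, chromosome 10 from 95385362 to 95417180, minus strand), which encodes an inhibitor of growth hormone signalling induced by STAT5, had 5.65, 5.45 and 5.74 FPKM in WT and 1.01, 0.885 and 0.766 FPKM in β-cateninΔ(ex3)/+ livers. All β-cateninΔ(ex3)/+ livers were far below the WT livers. *Socs2* fell from a mean of 5.61 ± 0.147 to 0.888 ± 0.124 FPKM (SD, n = 3), 6.32 times higher in WT, with a log2 change of -1.81 (SE 0.067, adjusted p = 4.79e-06 by limma).

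*Cish* (ENSMUSG00000032578, chromosome 9 from 107296026 to 107302784, plus strand) encodes CIS, the inhibitor whose start carries the copies of the STAT5 palindrome shown above. Its levels were 3.79, 3.03 and 3.71 FPKM in WT and 1.37, 1.39 and 1.44 FPKM in β-cateninΔ(ex3)/+ livers. The groups did not overlap, and the WT livers varied more than the β-cateninΔ(ex3)/+ livers. The mean was 2.50 times higher in WT, while the log2 change of -0.90 (SE 0.082, adjusted p = 0.000215 by limma) was under the fold threshold. After median-ratio scaling (-1.02) and quantile normalization (-1.05) it passed. With 1 liver left out it ran from -0.98 to -0.86 and did not pass.

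*Socs3* (ENSMUSG00000053113, chromosome 11 from 117966079 to 117970047, minus strand) encodes an inhibitor that is induced by cytokines of the IL-6 family through STAT3 as well as by growth hormone. It had 1.73, 1.91 and 1.99 FPKM in WT and 6.32, 7.11 and 7.73 FPKM in β-cateninΔ(ex3)/+ livers. *Socs3* rose in β-cateninΔ(ex3)/+ livers, from 1.88 ± 0.130 to 7.05 ± 0.709 FPKM (SD, n = 3), a ratio of 3.76 and a log2 change of 1.48 (SE 0.082, adjusted p = 2.52e-05 by limma).

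The order of the inhibitors was reversed between the groups. *Socs2* made up 50.6%, 52.5% and 50.2% of the summed FPKM of *Socs2*, *Socs3* and *Cish* in WT livers and 11.7%, 9.43% and 7.71% in β-cateninΔ(ex3)/+ livers. *Socs3* made up 15.5% to 18.4% in WT and 72.6% to 77.8% in β-cateninΔ(ex3)/+ livers. The sum itself was 11.2, 10.4 and 11.4 FPKM in WT and 8.70, 9.38 and 9.94 FPKM in β-cateninΔ(ex3)/+ livers. These shares were chosen for description after the values had been seen, and no test was run on them.

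**Figure D3:**
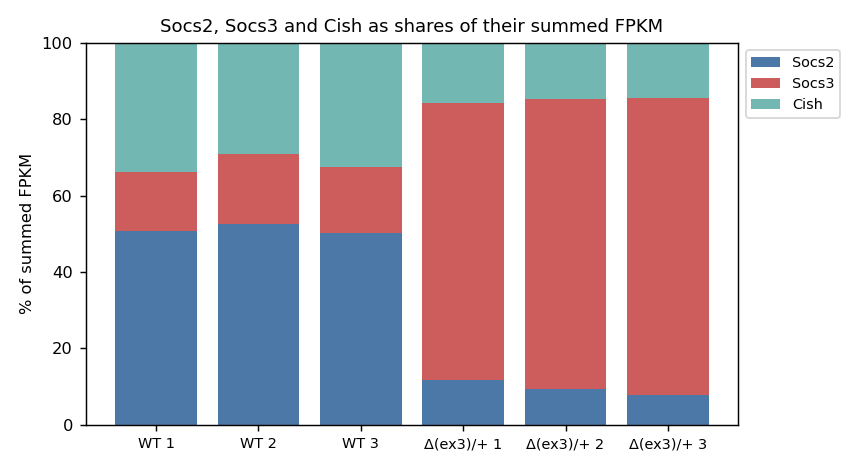
Shares of *Socs2*, *Socs3* and *Cish* in their summed FPKM, in percent, as stacked bars for each of the 6 livers. *Socs2* is the largest share in WT livers, at 50.2% to 52.5%, and *Socs3* in β-cateninΔ(ex3)/+ livers, at 72.6% to 77.8%.

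The repressors changed most. *Bcl6* (ENSMUSG00000022508, chromosome 16 from 23965052 to 23988852, minus strand) had 0.242, 0.324 and 0.283 FPKM in WT and 6.73, 6.19 and 6.41 FPKM in β-cateninΔ(ex3)/+ livers. *Bcl6* rose from the least abundant transcript of the 10 to a level near those of *Stat5a* and *Socs3*. Its mean was 0.283 ± 0.0410 FPKM in WT and 6.44 ± 0.271 FPKM in β-cateninΔ(ex3)/+ livers (SD, n = 3), a ratio of 22.7. The change on the log2 scale was 2.54 (SE 0.059, adjusted p = 6.66e-07 by limma), and with a pseudocount of 0.1, under which 20.4% of all genes were differentially expressed, it was 4.10.

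*Cux2* (ENSMUSG00000042589, chromosome 5 from 121856366 to 122050102, minus strand) went the other way, with 3.74, 3.84 and 3.65 FPKM in WT and 0.126, 0.106 and 0.0840 FPKM in β-cateninΔ(ex3)/+ livers. *Cux2* fell to the least abundant transcript of the 10, and the β-cateninΔ(ex3)/+ values stand on an estimated 17 to 24 fragments per liver. The mean was 35.5 times higher in WT, and the change on the log2 scale was -2.10 (SE 0.054, adjusted p = 1.05e-06 by limma), or -4.23 with a pseudocount of 0.1. Within a liver the *Cux2* transcript was 11.8 to 15.4 times that of *Bcl6* in WT, whereas *Bcl6* was 53.4 to 76.2 times *Cux2* in β-cateninΔ(ex3)/+ livers, a description chosen after the values had been seen.

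**Figure D4:**
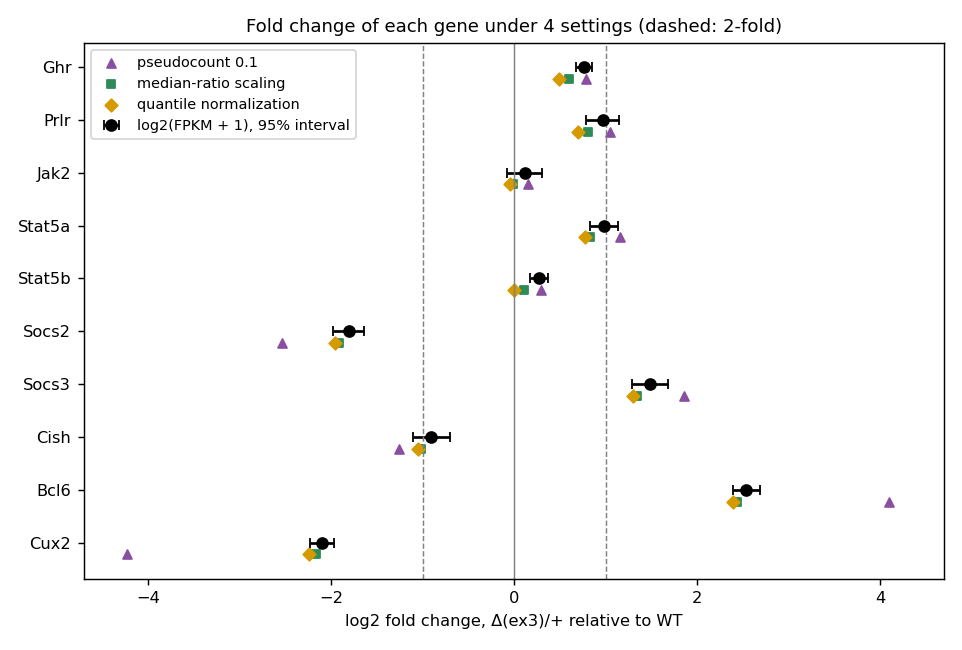
Log2 fold change of the 10 genes in β-cateninΔ(ex3)/+ relative to WT livers; black points are the values on the log2(FPKM + 1) scale with 95% intervals, and coloured marks give the values with a pseudocount of 0.1, with median-ratio scaling and with quantile normalization. *Socs2*, *Socs3*, *Bcl6* and *Cux2* are past the dashed 2-fold lines under each of the 4 settings, while *Jak2* lies near 0.

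By mean level the order in WT livers was *Ghr*, *Stat5b*, *Prlr*, *Socs2*, *Cux2*, *Cish*, *Stat5a*, *Jak2*, *Socs3* and *Bcl6*. Neighbours in that order did not overlap between livers, except *Cux2* with *Cish* and *Cish* with *Stat5a*. In β-cateninΔ(ex3)/+ livers the order was *Ghr*, *Prlr*, *Stat5b*, *Stat5a*, *Socs3*, *Bcl6*, *Jak2*, *Cish*, *Socs2* and *Cux2*, and the livers overlapped between *Stat5a* and *Socs3* and between *Socs3* and *Bcl6*. FPKM are per length, so these levels can be set side by side. Over the 6 livers genes most like *Bcl6* in log2(FPKM + 1) included *Znfx1* and *Cd5l* (Pearson r = 0.99992 and 0.99989), and those most like *Cux2* were *Fabp5*, *Lpl* and *Slc27a2* (r = 0.99995, 0.99994 and 0.99991). With 6 livers in 2 separate groups such values are common, since 1200 of 13242 genes had r over 0.99 with *Bcl6* and 608 with *Cux2*.

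Other genes of the pathway were described through a list of 45, of which 39 were tested. Of these 4 rose and 3 fell, against 8.17% and 4.52% of all genes, so 7 were differentially expressed, against 12.7% of all genes. A further 16 had an adjusted p under 0.05 with less than 2-fold, and 16 had not. Of all genes, 57.0% had an adjusted p under 0.05. The median log2 fold change of the 39 was 0.18, against 0.14 over all genes. Among the other JAK and STAT genes *Stat2*, known for carrying interferon signals, rose from 2.63 ± 0.290 to 16.2 ± 4.45 FPKM (SD, n = 3), with a log2 fold change of 2.21 and a limma adjusted p of 0.000231. *Stat3*, *Stat6*, *Jak3* and *Tyk2* had log2 fold changes of 0.44, 0.36, 0.63 and 0.53, each with a limma adjusted p of at most 0.00417 and under 2-fold, and *Jak1* had -0.11 (limma adjusted p = 0.117). *Stat3* and *Stat6* depended on the processing. Over the alternatives their lowest log2 fold changes were 0.17 and 0.10, and their highest limma adjusted p were 0.0927 and 0.259. *Stat4* was under the expression filter.

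Among other SOCS genes, phosphatases and PIAS proteins 1 of 13 rose, against 8.17% of all genes. This was *Ptpn1*, which encodes a phosphatase that acts on JAK2. *Ptpn1* had 4.50, 4.02 and 1.02 FPKM in WT and 7.48, 7.08 and 6.94 FPKM in β-cateninΔ(ex3)/+ livers, a log2 fold change of 1.10 (limma adjusted p = 0.0498). That call rests on the low WT replicate 3, without which the log2 fold change was 0.64, and 10 of 13 alternatives did not make it. Of 14 adaptors and SRC kinases 3 fell and 0 rose, against 4.52% and 8.17% of all genes. *Grb10*, an imprinted inhibitor of growth factor receptors, fell from 20.2 ± 0.520 to 0.538 ± 0.0267 FPKM (SD, n = 3), with a log2 fold change of -3.78 (limma adjusted p = 6.52e-08). *Irs2*, an adaptor shared with the insulin receptor, fell by 1.23 on the log2 scale (adjusted p = 2.80e-05 by limma), and *Src* had -1.08 (limma adjusted p = 0.00301), which was -0.98 and under 2-fold both without WT replicate 1 and without WT replicate 3.

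Receptors and ligands of the IL-6 family, which induce *Socs3*, were listed together with *Il10rb* and *Il22ra1*, receptor genes of other cytokines. Of these 10 genes 5 were tested, *Il10rb* among them, and 1 rose, against 8.17% of all genes. This was *Lifr*, the receptor for leukaemia inhibitory factor, with 11.9, 6.78 and 7.80 FPKM in WT and 79.7, 81.1 and 80.3 FPKM in β-cateninΔ(ex3)/+ livers, a log2 fold change of 3.08 (limma adjusted p = 3.60e-05). Acute phase proteins, which cytokines of the IL-6 family induce, were tested for 18 of 18 genes, and 10 rose and 0 fell, against 8.17% and 4.52% of all genes. The other 8 had an adjusted p under 0.05 with less than 2-fold, of which 2 were higher and 6 lower in β-cateninΔ(ex3)/+ livers. The lower ones were *Serpina3n* (log2 fold change -0.71), the fibrinogen genes *Fga*, *Fgb* and *Fgg* (-0.41, -0.35 and -0.29), *Itih4* (-0.27) and *Apcs* (-0.09), named after their values were seen. *Orm1* and *Orm2*, members of a family of near-identical genes between which fragments can be split, had the largest log2 fold changes of the list, 10.09 and 7.80, from 0.711 to 1853 and from 0.422 to 317 FPKM on average. The list thus did not move one way, and its relation to *Socs3* was not tested.

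*Igf1*, the hormone that growth hormone induces in liver through STAT5, had 44.8, 46.4 and 45.0 FPKM in WT and 47.6, 47.03 and 47.8 FPKM in β-cateninΔ(ex3)/+ livers. Its difference on the log2 scale was 0.06 (SE 0.033, adjusted p = 0.144 by limma), and it was -0.11 with median-ratio scaling and -0.19 with quantile normalization, so no direction is given. *Igfals*, which encodes the acid-labile subunit that carries IGF1 in blood, had 32.4, 33.0 and 34.8 FPKM in WT and 4.11, 39.5 and 37.6 FPKM in β-cateninΔ(ex3)/+ livers. β-cateninΔ(ex3)/+ replicate 1 stands apart there, and without it the log2 fold change was 0.20 (limma adjusted p = 0.0276) in place of -0.78 (limma adjusted p = 0.444).

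Genes known to differ between male and female liver under the control of growth hormone were counted next. Of 24 male-biased genes 22 were tested, and 19 rose and 0 fell, against 8.17% and 4.52% of all genes. A further 2 had an adjusted p under 0.05 with less than 2-fold and 1 had not. The median log2 fold change of the 22 was 1.88. *Mup3*, a major urinary protein gene of a family between whose copies fragments can be split, had 0.610 ± 0.305 FPKM in WT and 812 ± 17.7 FPKM in β-cateninΔ(ex3)/+ livers (SD, n = 3), and *Mup20* was listed at 0 in each WT liver and had 133 to 169 FPKM in β-cateninΔ(ex3)/+ livers. *Cyp7b1*, an oxysterol hydroxylase named after its values were seen, had 0.573 to 0.643 FPKM in WT and 162 to 164 FPKM in β-cateninΔ(ex3)/+ livers.

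Female-biased genes were split. Of 31 listed 27 were tested, and 13 fell and 7 rose, against 4.52% and 8.17% of all genes. A further 5 had an adjusted p under 0.05 with less than 2-fold, all of them lower in β-cateninΔ(ex3)/+ livers, and 2 had not. The median log2 fold change of the 27 was -0.84. The sulfotransferases *Sult2a1* and *Sult2a5*, which belong to a family of similar genes, fell most, from 273 ± 16.2 to 0.147 ± 0.146 FPKM and from 78.2 ± 1.16 to 0.251 ± 0.0999 FPKM (SD, n = 3). Besides *Lifr*, which is also on this list, those that rose included *Sult3a1*, which was listed at 0 in each WT liver and had 141 to 143 FPKM in β-cateninΔ(ex3)/+ livers, and *Cyp17a1*, an enzyme of steroid synthesis, which had 0.0725 ± 0.0954 and 18.3 ± 1.28 FPKM (SD, n = 3). *Bcl6* was thus higher where the male-biased list was higher. *Cux2* was higher in WT livers, where 13 female-biased genes were higher and 7 lower by at least 2-fold, and 5 were higher by less than 2-fold. Since the *Xist* and Y-linked levels separate the livers in the same way, these counts cannot be told apart from sex.

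Other transcription regulators, hepatocyte factors among them, were tested for 19 of 21 listed genes, and 4 rose and 0 fell, against 8.17% and 4.52% of all genes. A further 11 had an adjusted p under 0.05 with less than 2-fold, 6 higher and 5 lower in β-cateninΔ(ex3)/+ livers, and 4 had not. *Cebpb*, a factor of the acute phase response, rose from 27.7 ± 9.85 to 86.2 ± 4.03 FPKM (SD, n = 3), with a log2 fold change of 1.67 (limma adjusted p = 0.00276). *Zfp809*, known for silencing retroviral sequences, had 0.757 ± 0.1003 and 4.07 ± 0.281 FPKM (SD, n = 3), with a log2 fold change of 1.53 (limma adjusted p = 1.40e-05). The other 2 calls were less stable. *Ezh1*, a histone methyltransferase with 0.136, 1.52 and 0.225 FPKM in WT and 2.33, 2.47 and 2.37 FPKM in β-cateninΔ(ex3)/+ livers, had a log2 fold change of 1.16, and its call was lost without WT replicate 1, WT replicate 3 or any 1 β-cateninΔ(ex3)/+ replicate, with adjusted p of 0.0521 to 0.0602 by limma. *Hnf4a*, a central hepatocyte factor, had a log2 fold change of 1.10, which was 0.93 with median-ratio scaling and 0.86 with quantile normalization, under 2-fold.

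**Figure D5:**
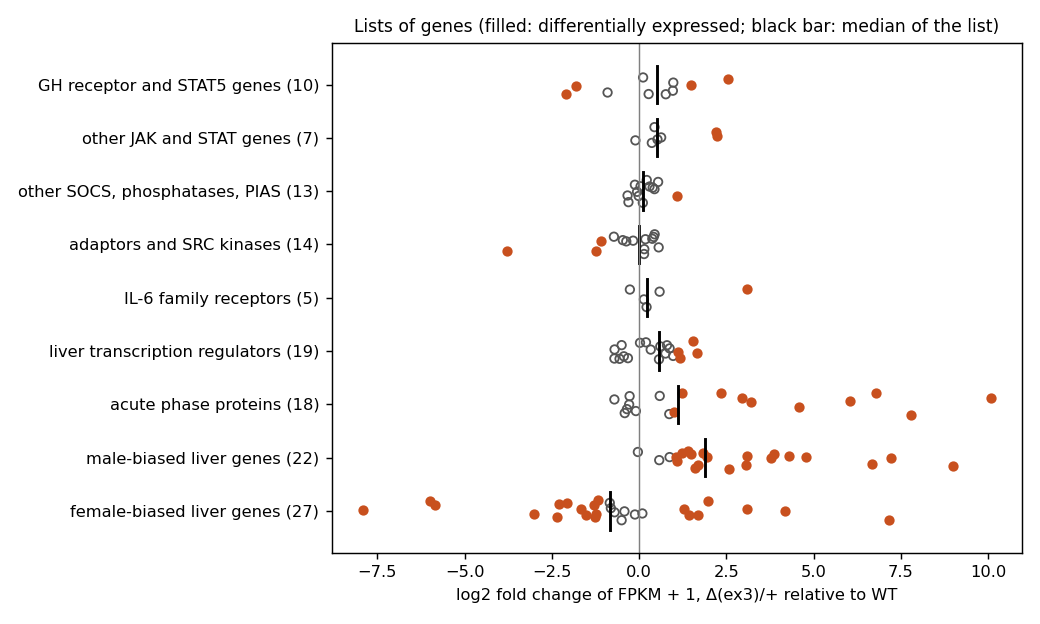
Log2 fold change of each tested gene, on the log2(FPKM + 1) scale, for the 10 genes and 8 lists, with the number of genes tested in parentheses; filled points are differentially expressed, open points are not, and the black bar is the median of a list. Male-biased genes lie almost all to the right, with a median of 1.88, while female-biased genes lie on both sides, with a median of -0.84.

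In bulk liver, fewer cells of a type and less RNA per cell cannot be told apart, and markers of several cell types differed between the groups. Defining hepatocyte transcripts were abundant in every liver, *Alb* with at least 24721 FPKM, and the 9 markers measured summed to 72889 to 76251 FPKM in WT and 37478 to 37767 FPKM in β-cateninΔ(ex3)/+ livers. Of these 9, 2 rose and 2 fell, with a median log2 fold change of -0.25, and the sum is carried by abundant transcripts such as *Alb* (-0.74), *Apoa1* (-2.01) and *Ttr* (-1.41). Of 10 macrophage markers tested 4 rose and 2 fell, with sums of 439 to 453 and 783 to 798 FPKM. Of 9 stellate cell and fibroblast markers tested 0 rose and 6 fell, with sums of 97.9 to 99.9 and 29.1 to 32.9 FPKM. Endothelial markers fell in 2 of 10, cholangiocyte markers in 1 of 5, lymphocyte markers in 2 of 5 and erythroid markers in 5 of 7, and 0 of these rose. Of all genes tested, 8.17% rose and 4.52% fell. Adipocyte markers were near 0 in WT livers, where *Adipoq* had at most 0.0734 FPKM, and *Adipoq* and *Plin1* had 4.78 to 6.26 and 1.302 to 1.79 FPKM in β-cateninΔ(ex3)/+ livers, while *Ckm* and *Myh4* of muscle were at most 0.0179 FPKM in any liver. Of 7 tested immediate early genes 1 rose, *Atf3*, and 0 fell, and mitochondrial transcripts made up 14.5% to 15.7% of all FPKM in WT and 18.1% to 18.8% in β-cateninΔ(ex3)/+ livers. The part of these differences in the values of the 10 genes was not tested.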

How the data were processed

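Poly(A) RNA from 3 WT and 3 β-cateninΔ(ex3)/+ livers was sequenced as stranded paired-end libraries. The authors deposited FPKM, a length- and depth-scaled value, for every gene in each liver. The submitters' processing notes name cutadapt 1.9, HISAT2 2.0.4, StringTie 1.3.4d, DESeq2 and edgeR; the genome build, the annotation and the use of strand in counting are not given in the sources used here. Of 31950 genes 90.5%, and 9 of the 10 followed here, share both ends with their GENCODE M21 entry (GRCm38). Samples were grouped by their titles, and 0 columns were left unused. The study's methods give 3 livers per group.

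From the FPKM, log2(FPKM + 1) was taken, and the 13243 genes that reached 0.5 FPKM on average were fitted with limma 3.58.1 in R 4.3.3 (trended eBayes), with Benjamini-Hochberg adjustment over these genes. This takes the place of the authors' DESeq2, which needs counts. An adjusted p under 0.05 and a fold change of at least 2 followed the study's methods. Ratios within a liver were compared by two-sided exact permutation tests (scipy 1.17.1). The spread between replicates was 1.77 to 3.43 times counting noise, so no pair was counted as 1 library deposited again, which says nothing of their independence.

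Depth was estimated from steps in the low FPKM of single-exon genes, as 24440000 to 24660000 fragments in WT and 16920000 to 19500000 in β-cateninΔ(ex3)/+ livers; 21.8% to 30.0% of low values lay on a step (within 0.02 of a whole fragment), against 4% by chance. The search for the depth was capped, since fragments shared by several places also give a peak at a higher depth. Fragments behind a value were estimated from this depth and the length of all annotated exons of the gene. They can be too high where the transcripts made are shorter. No counting intervals are given, since FPKM keep no counts.

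The 10 genes and the lists were chosen with earlier results of these data known. Named genes are the 10, *Igf1*, *Igfals*, of each list the 2 that rose most and the 2 that fell most, any of a list of 8 or fewer genes, and the 3 genes most correlated with the members that rose and fell most; some genes that this rule names are not reported here. Alternatives were a pseudocount of 0.1, other expression filters, median-ratio scaling, quantile normalization, no trend, a block for the replicate number, leaving out each liver, and no fold threshold. Exons of *Stat5a*, *Cish* and *Bcl6* overlap genes on the opposite strand. For *Cish* these are 2 genes, at 7.46% and 4.07% of its exon length, and for *Stat5a* and *Bcl6* 1 each, at 1.01% and 0.313%. Exons of *Prlr* overlap a gene on its own strand by 1.32%. ChIP-seq is not analysed here.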

Additional observations from a re-analysis of the deposited data

How the results depend on the processing

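With a pseudocount of 0.1, 7 of the 10 genes were differentially expressed, 4 higher and 3 lower, against 20.4% of all genes, the additional genes being *Prlr*, *Stat5a* and *Cish*. Without a fold threshold there were 9, against 57.0% of all genes, with 6 higher and 3 lower, against 37.4% and 19.6%. Median-ratio scaling and quantile normalization gave 5 each, against 12.1% of all genes in each, and the other filters and eBayes without a trend 4 each. With 1 liver left out there were 4 to 6, with 6 without WT replicate 2 (against 12.7% of all genes) and 5 without WT replicate 3 (against 12.8% of all genes), and 5 to 6 other pathway genes in place of 7 and 38 to 39 sex-biased genes in place of 39. The log2 fold change of *Jak2* was -0.014 with median-ratio scaling and -0.042 with quantile normalization, and that of *Stat5b* was -0.0040 after quantile normalization; the cause was not tested beyond the shift of the median of all genes by -0.12 and -0.16. These scalings gave 54.2% and 49.5% higher among all differentially expressed genes, against 64.4%. Of 130 comparisons over the 10 genes, 119 changed neither direction nor call, 8 came to pass the threshold and 3 reversed. The difference of the log2 ratio of *Stat5b* to *Stat5a* ranged from -0.94 to -0.84 and that of *Ghr* to *Prlr* from -0.32 to -0.19 with 1 liver left out, where the smallest possible exact p is 0.2. With the replicate number as a block (replicate block), 4 of the 10, 7 other pathway genes and 39 sex-biased genes were differentially expressed. Same-numbered livers differ in genotype, and their deviations from the group means correlated at 0.027, 0.021 and -0.0054, so the numbers pair nothing, and not every liver correlated best with its own number. The depth limits the low values, since *Bcl6* in WT livers stands on an estimated 40 to 53 fragments.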
